A study of Mus musculus with 11 samples.

Results

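The YAP/TAZ-TEAD factors and targets described here are 10 genes taken by symbol from a bulk RNA sequencing count table of 24421 rows. The 4 factors were Yap1, Wwtr1 (the gene of TAZ), Tead1 and Tead4. The 6 targets were Lats2, Ankrd1, Cyr61, Ctgf, Axl and Amotl2, and all 10 passed the filter on low counts that left 13916 genes. The libraries came from fetal mouse lungs at E17.5, from cells held back by microbeads against EpCAM, a surface protein of epithelial cells. There were 6 Control libraries and 5 PRDM3/16KO libraries, in which floxed alleles of both Prdm16 and Prdm3 were recombined by ShhCre, a Cre allele at the sonic hedgehog gene, expressed by lung epithelial cells. The labels call the other group Control and do not give its alleles. Under the stated breeding, in which every parent was Prdm3 fl/fl and carried a floxed Prdm16 allele, Control embryos may carry floxed alleles too. Nothing states whether libraries came from separate embryos, and the p-values therefore describe the spread among 11 libraries, which may be partly technical.

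YAP and TAZ are co-activators that do not bind DNA themselves. When the Hippo kinases (MST1/2, encoded by Stk4 and Stk3, and LATS1/2) are active, YAP and TAZ are phosphorylated and held in the cytoplasm. Otherwise they enter the nucleus and bind TEAD proteins, which sit on short DNA motifs beside genes such as Cyr61, Ctgf and Ankrd1. In the lung, YAP and TAZ are known for their part in the stretch-sensitive differentiation of alveolar type 1 cells, the flat cells of gas exchange. Activity is set largely by the protein's phosphorylation and place in the cell, which RNA counts do not measure.

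The proximal promoters of 4 targets are shown because these targets differed in how their RNA changed (Ankrd1 and Axl rose, Amotl2 fell and Cyr61 did not pass the test). Each is a RefSeq window on build GRCm38.p6, 250 bases before to 50 bases after the annotated start, read 5′ to 3′ on the gene's strand. Capitals mark the core TEAD hexamer, searched as GGAATG and its reverse complement CATTCC.
Ankrd1 (chr19:36119795-36120094, minus strand): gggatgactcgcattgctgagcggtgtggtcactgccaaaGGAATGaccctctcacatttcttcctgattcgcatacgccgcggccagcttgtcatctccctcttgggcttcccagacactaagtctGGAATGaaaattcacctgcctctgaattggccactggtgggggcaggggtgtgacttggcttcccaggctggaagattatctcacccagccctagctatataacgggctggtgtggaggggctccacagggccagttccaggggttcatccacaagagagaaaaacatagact
Axl (chr7:25788684-25788983, minus strand): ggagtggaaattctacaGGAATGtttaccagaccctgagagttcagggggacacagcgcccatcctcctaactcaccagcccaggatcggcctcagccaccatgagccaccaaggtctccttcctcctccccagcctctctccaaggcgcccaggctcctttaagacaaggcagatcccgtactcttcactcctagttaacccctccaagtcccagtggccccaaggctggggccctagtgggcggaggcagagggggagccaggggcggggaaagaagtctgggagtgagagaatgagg
Cyr61 (chr3:145649936-145650235, minus strand): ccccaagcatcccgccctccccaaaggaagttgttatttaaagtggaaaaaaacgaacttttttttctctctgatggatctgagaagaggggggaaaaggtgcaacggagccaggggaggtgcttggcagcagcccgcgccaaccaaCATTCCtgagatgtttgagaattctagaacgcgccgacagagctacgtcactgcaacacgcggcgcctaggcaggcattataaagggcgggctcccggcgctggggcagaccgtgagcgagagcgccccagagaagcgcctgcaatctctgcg
Amotl2 (chr9:102717554-102717853, plus strand): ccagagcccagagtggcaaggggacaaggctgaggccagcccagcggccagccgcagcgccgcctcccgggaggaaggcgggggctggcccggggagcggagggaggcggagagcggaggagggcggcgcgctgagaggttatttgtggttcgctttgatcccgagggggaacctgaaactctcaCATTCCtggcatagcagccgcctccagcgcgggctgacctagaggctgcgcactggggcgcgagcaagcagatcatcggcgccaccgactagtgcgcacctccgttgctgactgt

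Promoter windows were matched for 7 of the 10 genes (Yap1, Wwtr1, Lats2, Ankrd1, Cyr61, Axl and Amotl2). Each of the 7 held at least 1 copy of the hexamer in at least 1 of its windows, against 16.6% of 27025 genes in the same set, and 14.7% of all 32851 windows. The targets among them were chosen as known targets of the pathway, so this difference may follow from the choice of genes and was not tested. Ankrd1 held 2 copies, beginning 210 and 123 bases before the start, where 1.36% of all windows held 2 or more. The copy lay 103 bases before the start in Cyr61, 65 in Amotl2, 233 in Axl and 141 in Yap1. In both overlapping windows of Wwtr1 it was the same copy, and in Lats2 it began at base 5, counted with 1 of its starts as base 1. The hexamer was therefore present beside genes that rose, genes that fell and genes that did not pass the test. A match describes letters in a window and not a bound site.

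The factors and the targets did not move as blocks. By edgeR's quasi-likelihood test at an adjusted p under 0.05, 7 of the 10 genes differed between the groups, where 42.9% of all genes tested did. In the knockout 4 members were higher (Tead4, Ankrd1, Ctgf and Axl), where 21.1% of all genes were, and 3 were lower (Yap1, Wwtr1 and Amotl2), where 21.8% were. Among the 4 factors 1 rose, 2 fell and 1 did not pass, with a median log2 fold change of -0.06. Among the 6 targets 3 rose, 1 fell and 2 did not pass, with a median of 0.19, beside 0.0023 for all genes. Levels in CPM, which are counts scaled to a common library size with the trimmed mean of M values, did not overlap between the groups for 5 members, Yap1, Wwtr1, Tead4, Ankrd1 and Axl, and for 28.5% of all genes. In bulk samples such as these, fewer cells of a type and less RNA per cell cannot be told apart.

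**Figure D1:**
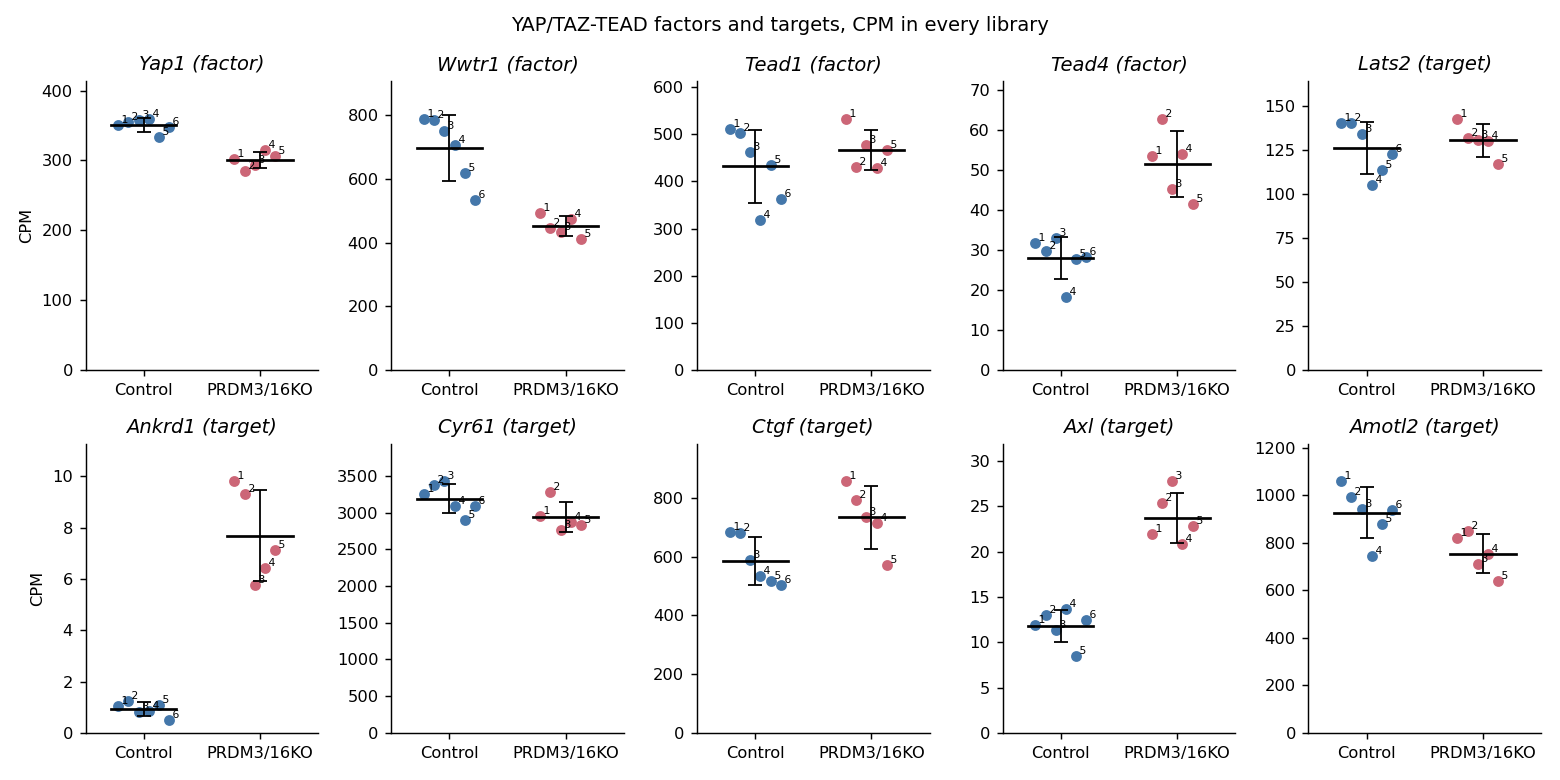
CPM of the 10 genes in each Control (blue) and PRDM3/16KO (red) library, numbered by replicate; lines are means and bars are SD (n = 6 and n = 5), and each axis starts at 0. The groups do not overlap for Yap1, Wwtr1, Tead4, Ankrd1 and Axl, and overlap for the other 5 genes.

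Libraries held 6065906 to 7869787 counts. The genes of the selection and of the epithelium were present in both groups: the mean of Epcam was 251 ± 25.3 CPM over the Controls and 261 ± 10.8 CPM over the knockouts (here and below, SD with n = 6 and n = 5). Of 7 epithelial markers, 4 fell, with Cldn3 (-0.78) and Cldn7 (-0.37) first by adjusted p, and none rose. Prdm16 ranged from 172 to 226 CPM in Control and from 147 to 181 CPM in the knockout (log2 fold change -0.28; edgeR, adjusted p = 0.00904), and Mecom, the present name of Prdm3, from 205 to 233 and from 320.0 to 353 CPM (0.64; edgeR, adjusted p = 3.26e-07). Reads of all exons were summed, and which exons were deleted is not given, so these levels check the labels only weakly. All 8 alveolar type 2 markers were lower, led by Etv5 (-1.50) and Lamp3 (-2.79), and their mean summed level was 2165 CPM in the knockout against 8259.9 CPM in Control.

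Wwtr1, which encodes the co-activator TAZ (chromosome 3, 57455649 to 57575910, mm10, minus strand), fell. Controls 1 to 6 gave 789, 786, 750.1, 708, 618 and 534 CPM, and knockouts 1 to 5 gave 493, 447, 434, 475 and 412 CPM, the order of libraries used throughout. Every knockout library lay below every Control library, although Controls 5 and 6 were well below the other 4. Means were 697 ± 102 and 452 ± 32.4 CPM (log2 fold change -0.62, 95% interval -0.84 to -0.41; edgeR, adjusted p = 0.000125).

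Yap1, the gene of YAP (chromosome 9, 7931999 to 8004596, minus strand), fell by less. Its values were 351, 356, 357, 359.6, 333 and 348 CPM in Control and 302, 285, 293, 316 and 307 CPM in the knockout. The groups did not overlap because the spread was small, with a coefficient of variation of 2.75% over the Controls, which was the lowest of the 10 genes. The mean fell by 14.3%, from 351 ± 9.66 to 300.5 ± 11.96 CPM (log2 fold change -0.22, SE 0.0546; edgeR, adjusted p = 0.00388). With library-size scaling alone, which moved the median of all genes from 0.0023 to 0.11, the Yap1 value was -0.12 and was not called (edgeR, adjusted p = 0.0866). Exons of Yap1 overlap Gm20416 on the other strand, and without a stated strand setting reads of the pair cannot be told apart.

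Per kilobase of exon, Wwtr1 was the more abundant of the 2 co-activator transcripts in all 11 libraries. The Wwtr1 level was 3.85 ± 0.516 times the Yap1 level in Control (range 2.97 to 4.36) and 2.92 ± 0.210 times in the knockout (range 2.60 to 3.161). These ranges overlapped, at Control library 6. The sum of both co-activators was 184 ± 21.97 CPM per kb in Control (149 to 203) and 127 ± 7.22 CPM per kb in the knockout (119 to 136), with no overlap. The group mean of that sum in the knockout was 0.691 of that in Control.

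Tead4, one of the DNA-binding partners and known for its part in the trophectoderm of the early embryo (chromosome 6, 128224288 to 128300823, minus strand), rose. It stood at 31.7, 29.7, 33.0, 18.2, 27.8 and 28.4 CPM in Control and at 53.6, 62.8, 45.3, 54.1 and 41.6 CPM in the knockout. All 5 knockout libraries were above all 6 Controls, and Control library 4 was the lowest of all. Means were 28.1 ± 5.27 and 51.5 ± 8.30 CPM (log2 fold change 0.87, SE 0.135; edgeR, adjusted p = 0.000109), and the log2 fold change was 0.77 without Control library 4.

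Tead1 (chromosome 7, 112679318 to 112906807, plus strand), the most abundant TEAD transcript per kilobase, did not pass the test. Its values were 511, 501, 462, 318, 434 and 363 CPM in Control and 532, 431, 476, 428 and 466 CPM in the knockout. The groups overlapped widely, and Control library 4 was again the lowest. The log2 fold change was 0.11 (95% interval -0.13 to 0.36; edgeR, adjusted p = 0.462).

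The other TEAD genes completed the picture of a family whose members moved apart. Tead3 was lower in the knockout, at 105 ± 6.62 against 129 ± 12.6 CPM (log2 fold change -0.29; edgeR, adjusted p = 0.00421), and Tead2 had a log2 fold change of 0.44 that was not called (edgeR, adjusted p = 0.0612). Tead2 was called higher in 10 of 28 alternative settings, among them DESeq2, limma-voom, the replicate block and the omission of Control library 5 or 6. Of the length-scaled TEAD counts, Tead4 held 11.5% ± 1.06 in Control and 18.8% ± 2.53 in the knockout, with ranges of 9.59% to 12.8% and 15.7% to 22.3%. The share of Tead3 was 28.8% ± 3.36 and 20.7% ± 1.41, again without overlap. Tead1 held 47.1% ± 4.51 and 45.3% ± 3.84. The sum over the 4 genes was 67.3 ± 7.86 CPM per kb in Control and 75.9 ± 2.995 CPM per kb in the knockout, and these ranges overlapped.

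**Figure D2:**
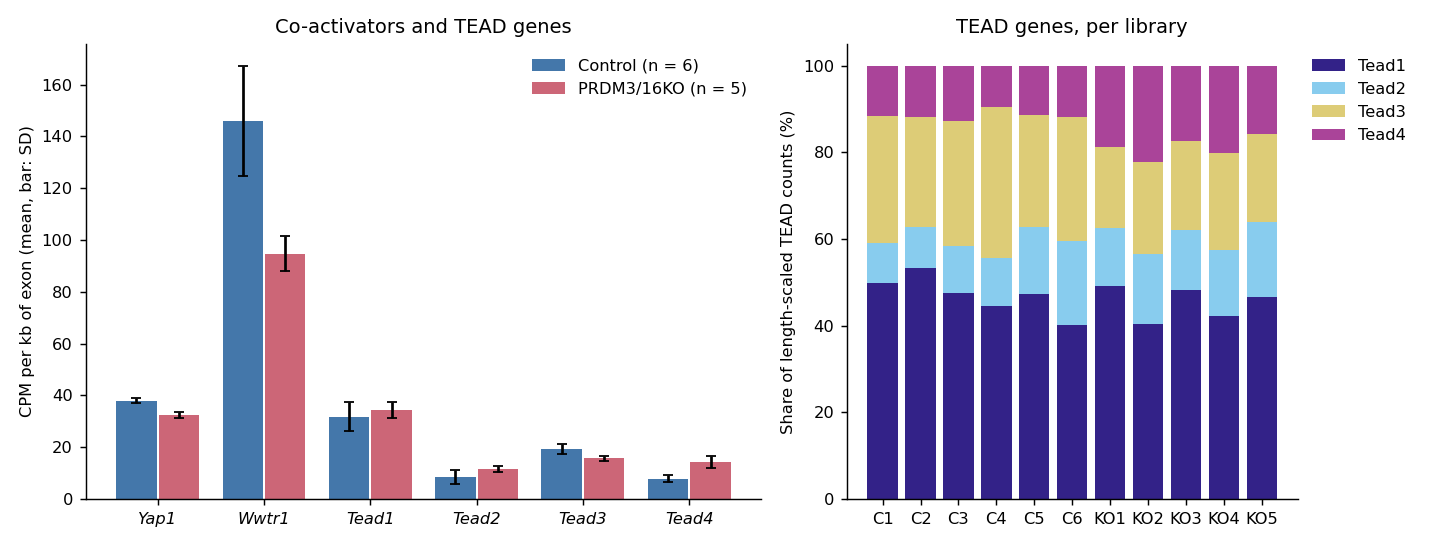
Left, mean CPM per kilobase of exon of the co-activator genes and the TEAD genes in Control (blue, n = 6) and PRDM3/16KO (red, n = 5), with SD as bars. Right, the share of each TEAD gene in the length-scaled TEAD counts of every library (C, Control; KO, PRDM3/16KO), in which Tead4 holds 9.59% to 12.8% in Control and 15.7% to 22.3% in the knockout.

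Among the targets, Ankrd1 changed most. It encodes an ankyrin repeat protein best known from heart muscle (chromosome 19, 36111961 to 36120099, minus strand). Its raw counts were 6, 9, 5, 5, 8 and 4 in the Control libraries and 74, 71, 45, 50 and 58 in the knockout libraries. The transcript was close to the limit of detection in every Control library and present in every knockout library, with no overlap. The mean went from 0.927 ± 0.267 to 7.69 ± 1.78 CPM, which on the log2 scale was a rise of 3.04 (SE 0.235; adjusted p = 6.14e-08 by edgeR). The ratio of summed, library-scaled counts was 8.35, with a 95% interval for counting error alone of 5.92 to 12.1. In absolute size the Ankrd1 change lay above that of 98.7% of genes tested, and it was called under all 28 alternative settings, with log2 fold changes of 2.71 to 3.20.

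Axl, a receptor tyrosine kinase for GAS6 (chromosome 7, 25757273 to 25788705, minus strand), rose as well. It was measured at 11.9, 13.0, 11.3, 13.7, 8.52 and 12.5 CPM in Control and at 21.98, 25.3, 27.7, 20.8 and 22.8 CPM in the knockout. No value was shared between the groups. Means were 11.8 ± 1.80 and 23.7 ± 2.79 CPM (log2 fold change 1.01, SE 0.119; edgeR, adjusted p = 5.91e-06).

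Ctgf and Cyr61, which encode the secreted matrix-associated proteins CCN2 and CCN1, are the most widely used YAP/TAZ readouts. Ctgf (chromosome 10, 24595442 to 24598683, plus strand) was counted at 685, 681, 589.7, 536, 518 and 503 CPM in Control and at 856, 793, 734, 713 and 572 CPM in the knockout. The top 4 knockout libraries were above every Control, and knockout library 5 lay among the Controls. Means were 586 ± 81.1 and 734 ± 106 CPM (log2 fold change 0.33, SE 0.111; edgeR, adjusted p = 0.0272). This call was lost without Control library 5 (0.29; edgeR, adjusted p = 0.0588) or without knockout library 1 (0.26; edgeR, adjusted p = 0.0843). In all it was lost or turned in 11 of 28 alternative settings. Among these were the omission of Control libraries 5 and 6 (0.23; edgeR, adjusted p = 0.0957), a covariate for Y-linked transcripts (0.30; edgeR, adjusted p = 0.0761) and one for mesothelial markers, where the direction reversed (-0.23; edgeR, adjusted p = 0.635). Exons of Ctgf overlap Gm15270 on the other strand, with the same limit.

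Cyr61 (chromosome 3, 145646976 to 145649981, minus strand) was the most abundant of the 10 genes and did not pass the test. It stood at 3258, 3373, 3424, 3088, 2900.0 and 3093 CPM in Control and at 2951, 3283, 2768, 2866 and 2836 CPM in the knockout. The groups overlapped, and the log2 fold change was -0.12 (95% interval -0.28 to 0.04; edgeR, adjusted p = 0.229). It was called lower when Control libraries 4 to 6 were left out (-0.19; edgeR, adjusted p = 0.0234). Per kilobase, the Ctgf level was 0.129 ± 0.0132 of the Cyr61 level in Control (0.115 to 0.148) and 0.176 ± 0.0229 in the knockout (0.142 to 0.205), with overlap. Both genes are also known as rapid responders to serum. Of 12 early response genes, 4 rose and 4 fell, with Fosb higher (0.98) and Zfp36 lower (-0.66), and their summed level ran from 19923 to 23767 CPM in Control and from 20721 to 24424 CPM in the knockout. The part of that response in the Ctgf and Cyr61 levels was not tested beyond a fit with it as a covariate. In that fit neither gene changed its call, but both adjusted p-values lay nearer the threshold. Ctgf stood at 0.28 (edgeR, adjusted p = 0.0472) and Cyr61 at -0.16 (edgeR, adjusted p = 0.0657).

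Amotl2 and Lats2 are targets that also restrain the pathway, the first by binding YAP and TAZ and the second by phosphorylating them. Amotl2 (chromosome 9, 102716672 to 102733418, plus strand) was counted at 1057, 992, 942, 743, 879 and 937 CPM in Control and at 819, 848, 711, 751 and 641 CPM in the knockout. Control library 4 lay among the knockout libraries, and the other 5 Controls lay above all of them. The mean fell from 925 ± 107 to 754 ± 83.3 CPM (log2 fold change -0.30, SE 0.0964; edgeR, adjusted p = 0.0223). The call was lost without knockout library 3 (-0.27; edgeR, adjusted p = 0.0569), without knockout library 5 (-0.24; edgeR, adjusted p = 0.0678) and under scaling by library size only (-0.19; edgeR, adjusted p = 0.101).

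Lats2 (chromosome 14, 57689662 to 57758388, minus strand) did not pass. Its values were 140.4, 140.1, 134, 105, 113 and 123 CPM in Control and 143, 132, 131, 130.1 and 117 CPM in the knockout. Of the 5 knockout values 4 lay within the Control range, and Lats2 shares exon sequence with Gm49361 on the same strand. The log2 fold change was 0.05 (95% interval -0.12 to 0.22; edgeR, adjusted p = 0.654).

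Per kilobase of exon, the 10 transcripts spanned a wide range of levels. The Control order was Cyr61 (1579.7 CPM per kb), Ctgf (205), Amotl2 (147), Wwtr1 (146), Yap1 (37.9), Tead1 (31.8), Lats2 (18.1), Tead4 (7.82), Axl (2.35) and Ankrd1 (0.321). Of these neighbours, Amotl2 and Wwtr1 overlapped in their ranges, as did Yap1 and Tead1, and the others were apart. In the knockout Wwtr1 (94.6 CPM per kb) stood below Amotl2 (120, ranges 86.2 to 103 and 102 to 135), Tead1 (34.4) and Yap1 (32.5) overlapped, and Tead4 (14.3) reached the range of Lats2 (18.7).

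Control libraries differed among themselves in these genes. Control library 4 had the lowest Control value of 4 members (Tead1, Tead4, Lats2 and Amotl2), and libraries 5 and 6 of 3 members each. Library 1 had the highest value of 5. The summed level of 10 proliferation markers was 211 CPM in Control library 4, 601 in library 5 and 845 in library 6, against 327 to 388 CPM in Controls 1 to 3 and 303 to 416 CPM in the knockouts. Of these markers Pcna (-0.45) and Rrm2 (-0.59) were called lower.

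Wwtr1 and Ctgf ranked the 6 Control libraries in the same order as did 9 alveolar type 1 markers, which no other member did. That order is also the order of the replicate numbers, so marker level and numbering cannot be told apart there. Among the knockout libraries, 0 of the 10 members followed the marker order. The summed marker level was 8575, 8388, 8016, 7276, 5875 and 5375 CPM in Control libraries 1 to 6 and 8851, 9045, 8111, 9367 and 7621 CPM in knockout libraries 1 to 5. Knockouts 1 to 4 thus had marker sums above that of Control 3 and knockout 5 lay between Controls 3 and 4, with Wwtr1 below all of the Controls. Of the 9 markers 3 rose and 1 fell, with Ager higher (0.65) and Pdpn lower (-0.61). With the mean level of these markers as a covariate, an alternative chosen after seeing the data, the Wwtr1 log2 fold change was -0.81 (edgeR, adjusted p = 2.55e-08) and that of Ctgf was 0.17 and was not called (edgeR, adjusted p = 0.181). Cyr61 was called lower in that fit (-0.18; edgeR, adjusted p = 0.0364).

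**Figure D3:**
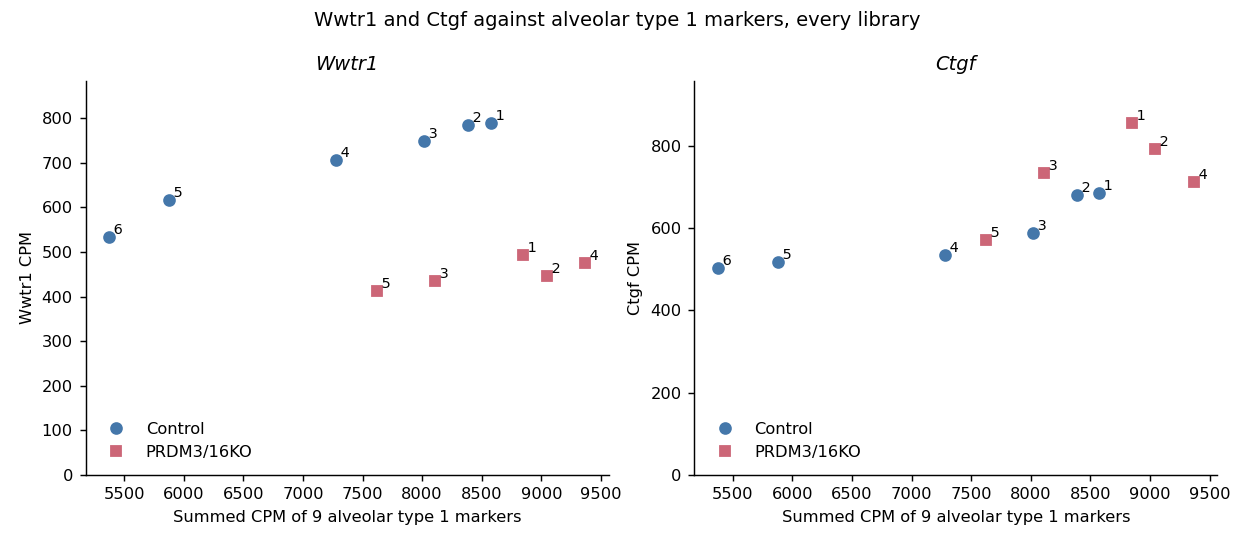
CPM of Wwtr1 (left) and Ctgf (right) against the summed CPM of 9 alveolar type 1 markers in each library, numbered by replicate (blue circles, Control; red squares, PRDM3/16KO). For Wwtr1 the knockout libraries (412 to 493 CPM) lie below Controls of like marker level, while for Ctgf 4 of 5 knockout libraries (713 to 856 CPM) lie above every Control and knockout 5 (572 CPM) lies among them.

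Markers of cells other than epithelium also rose in the knockout. All 6 mesothelial markers were higher, with Upk1b (2.80) and Aldh1a2 (2.12) first by adjusted p, and their summed level was 155 to 295 CPM in Control and 448 to 566 CPM in the knockout. The ratio of the group means of that sum was 2.179. Most of the sum was Msln (208 CPM in Control and 430 CPM in the knockout), and the log2 fold changes of the 6 markers ran from 0.64 to 2.80. Of the 11 mesenchymal markers tested 6 rose and none fell, with Postn (1.22) and Dcn (1.47) first, and their sum ran from 301 to 470 CPM and from 423 to 757 CPM. Of the 6 endothelial markers tested 3 rose, among them Pecam1 (1.07), and Kdr (-1.23) fell. The sums were 60.9 to 103 CPM in Control and 48.2 to 69.0 CPM in the knockout. Kdr alone held 58.0 of the mean sum of 79.97 CPM in Control. In the knockout it held 24.6 of 60.7 CPM. Of the 5 immune markers tested 2 rose, Csf1r (1.32) and Ptprc (1.30), with sums of 161 to 779 and 365 to 746 CPM. Most of the immune sum was Lyz2 (mean 420 CPM in each group), which was not called, and Cd3e had no count in Control. Of the 4 erythroid markers only Alas2 passed the filter, and it was not called. The part of these cells in the changes of the 10 genes was not tested beyond the fits that follow.

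With the mesothelial level as a covariate, chosen after seeing the data, Ankrd1 was still called (log2 fold change 2.94; edgeR, adjusted p = 0.0186) and Wwtr1 was called at -1.24 (edgeR, adjusted p = 0.00295). Axl (0.46; edgeR, adjusted p = 0.382) and Tead4 (0.81; edgeR, adjusted p = 0.203) were not. Because the mesothelial sums of the groups did not overlap, genotype and mesothelial level cannot be told apart for any of the 10 genes. In the same fit Yap1 (-0.24; edgeR, adjusted p = 0.344) and Amotl2 (-0.40; edgeR, adjusted p = 0.356) were not called either. With the mesenchymal level as a covariate, Ankrd1 (3.10), Axl (0.90), Tead4 (1.06) and Wwtr1 (-0.47; edgeR, adjusted p = 0.0479) were called. Yap1 (-0.20; edgeR, adjusted p = 0.121), Ctgf (0.38; edgeR, adjusted p = 0.153) and Amotl2 (-0.24; edgeR, adjusted p = 0.302) were not.

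A wider list of 22 YAP/TAZ targets, known from human tumours and holding all 6 targets above, had calls in both directions, as did all genes. In it 9 genes rose, 5 fell and 8 did not pass, with a median log2 fold change of 0.07 beside 0.0023 for all genes. That is 63.6% called, where 42.9% of all genes were (21.1% higher and 21.8% lower). Among the 16 other genes, Asap1, an Arf GTPase regulator, rose from 9.92 ± 1.34 to 19.3 ± 1.88 CPM (0.96). Ptpn14, a phosphatase that holds YAP in the cytoplasm, rose from 282 ± 35.8 to 436 ± 33.6 CPM (0.63), and the matrix gene Ccdc80 (0.97), Fjx1 (0.91), the kinase gene Nuak2 (0.30) and Myof (0.20) rose with it. Gadd45a, a stress-response gene, fell from 92.9 ± 11.8 to 47.2 ± 1.73 CPM (-0.97; edgeR, adjusted p = 2.91e-07). Nt5e, whose product makes adenosine at the cell surface, fell from 13.5 ± 2.67 to 4.48 ± 2.181 CPM (-1.58), and the ligand gene Tgfb2 (-0.51) and Rbms3 (-0.32) fell, the latter losing its call in 8 of 28 alternative settings, among them the omission of knockout library 2 or 4. The tissue factor gene F3 stood at 968 ± 212 and 1032 ± 104 CPM and was not called.

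Genes that act on YAP and TAZ were also called in both directions. Of 36 Hippo pathway and TEAD partner genes, which include 6 of the members, 34 were tested, of which 8 rose and 11 fell, with a median log2 fold change of -0.05. That is 55.9% called, beside the same 42.9% of all genes. The kinase genes Lats1 (0.04), Stk3 (-0.28) and Stk4 (-0.17) were not called. Stk4 lay at the threshold and was called lower in 9 of 28 alternative settings, among them DESeq2, the replicate block and the omission of Control library 6 or knockout library 5. Stk3 was called lower in 6, among them the replicate block and the omission of Control library 6. Of their helpers, the scaffold gene Sav1 fell from 102 ± 13.1 to 68.6 ± 3.84 CPM (-0.57) and the LATS co-activator gene Mob1b rose from 38.8 ± 3.66 to 58.0 ± 4.61 CPM (0.58).

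The angiomotin genes moved apart: Amot rose from 24.1 ± 4.27 to 54.1 ± 3.83 CPM (1.16 on the log2 scale; edgeR, adjusted p = 4.16e-07) and Amotl1 from 213 ± 30.4 to 345 ± 11.5 CPM (0.69), where Amotl2 fell. Nf2, the gene of the tumour suppressor Merlin, rose from 144 ± 5.60 to 175 ± 6.05 CPM (0.28; edgeR, adjusted p = 0.000370). The LIM protein gene Ajuba (0.58), whose product restrains LATS kinases, and the atypical cadherin gene Dchs1 (0.79) rose too. The kinase gene Taok3 (-0.69) and Wwc2 (-0.28) fell. Wwc1 (-0.26), Limd1 (-0.20) and Taok2 (-0.19) were called lower with less stability, since their calls were lost in 8, 12 and 21 of the 28 alternative settings, single left-out libraries of both groups among them for Limd1 and Taok2 and knockout libraries 3 and 5 for Wwc1. Vgll4, whose product competes with YAP for TEAD proteins, fell from 68.1 ± 14.9 to 46.3 ± 3.34 CPM (-0.56; edgeR, adjusted p = 0.00536).

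**Figure D4:**
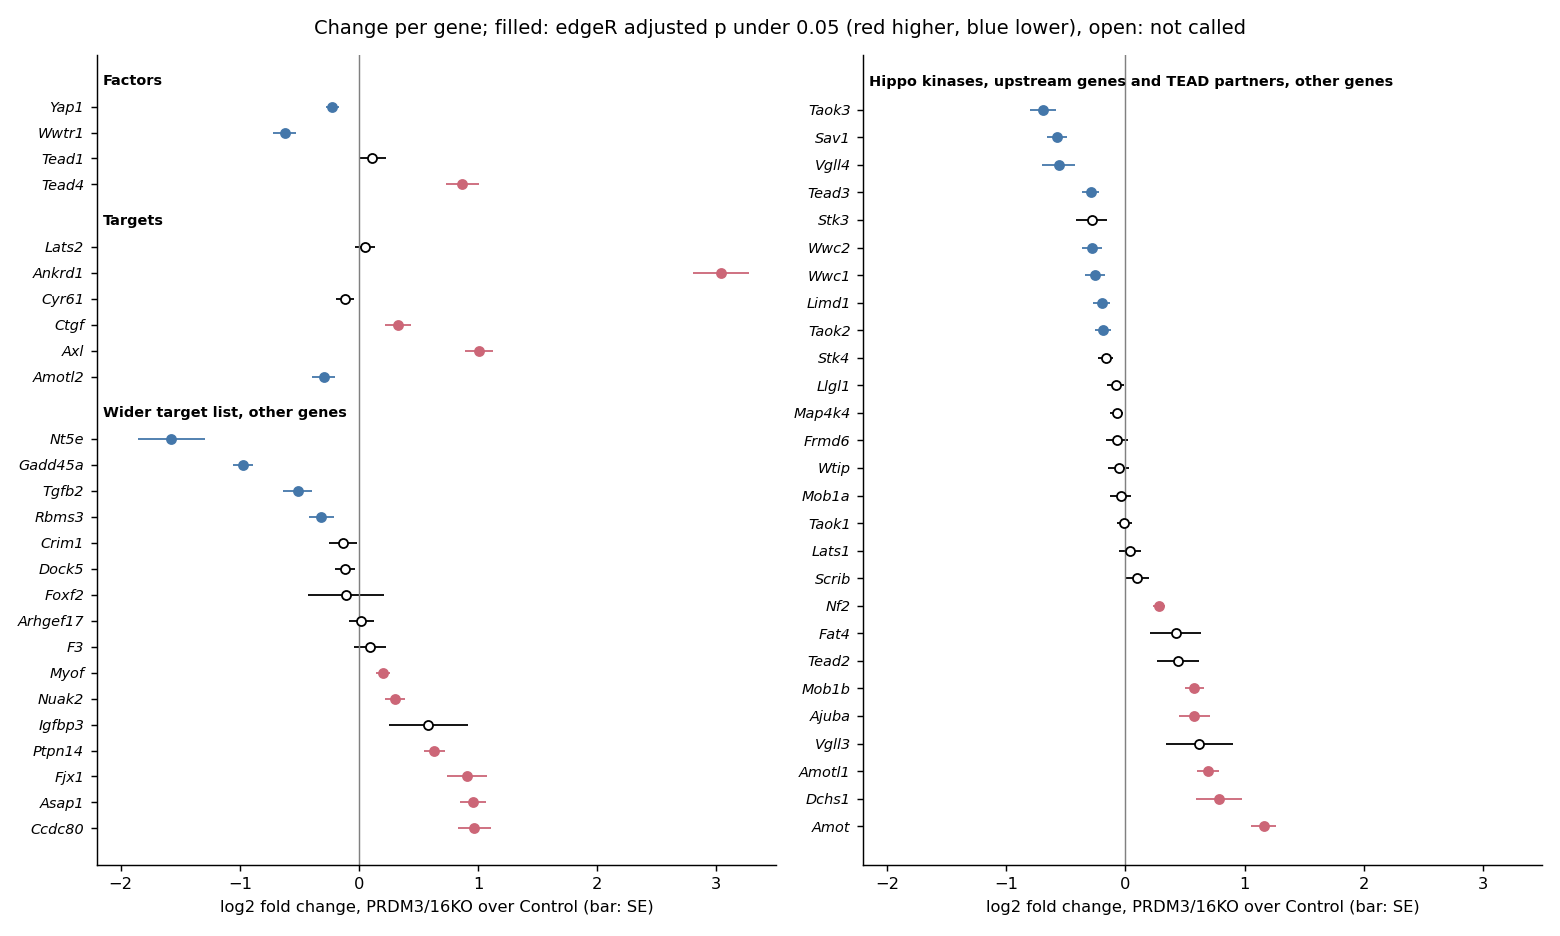
Log2 fold change (PRDM3/16KO over Control) with its standard error for the 10 genes, the other genes of the wider target list (left) and the other Hippo pathway and TEAD partner genes (right); filled points passed edgeR's test (adjusted p under 0.05; red higher, blue lower) and open points did not. Each group holds genes on both sides of 0, and Ankrd1 lies farthest from it at 3.04.

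Genes with the most similar profiles were sought for the factor and the target with the largest change. The measure was the mean absolute difference of log2 CPM (0.5 added to each CPM) over the 11 libraries, after each gene was centred on its own mean. As the libraries span both groups, a like change between the groups follows largely from the search itself. For Tead4 these were Tlr5 (0.114), Inf2 (0.115) and Cttnbp2nl (0.118), which had log2 fold changes of 0.95, 0.91 and 0.96. For Ankrd1 they were Slc8a1 (0.196), Rab3c (0.209) and Smpd3 (0.224), with log2 fold changes of 2.48, 2.72 and 2.39. The added 0.5 shrinks the Ankrd1 difference in this search, since its Control mean was 0.927 CPM. Tlr5 is a receptor for flagellin, Inf2 a formin that acts on actin, and Slc8a1 a sodium-calcium exchanger.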

How the data were processed

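The authors deposited whole-number counts per gene symbol, 1 column per library. Per the submitters' processing notes, the build was mm10 and the tools, listed without roles, were HTSeq 2.0, Bowtie2 2.4.2, Trim Galore 0.4.2, Picard 2.18.22, FastQC, DESeq2 and SAMtools 1.10.0. For annotation, strand setting and duplicates the entry is: not given in the sources used here. Of the 24421 rows, 27 carry symbols turned into dates and are not named. Genes were placed with GENCODE M21, of the same build, coordinates counted from 1. Lengths are the union of annotated exons.

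All genes passing filterByExpr were fitted together with edgeR 4.0.16 in R 4.3.3 (TMM scaling, robust quasi-likelihood F-test, two-sided, Benjamini-Hochberg over 13916 genes, threshold 0.05). Log2 fold changes are knockout over Control. Ratios, shares and list medians are descriptions. Cyr61 and Ctgf are Ccn1 and Ccn2 in the annotation. Of the steps only the edgeR fit, without covariate or block, was tested on simulated counts. No 2 libraries agreed within sampling noise: chi-square per degree of freedom was at least 3.21 in all 25 within-group pairs. Alternatives used DESeq2 1.42.0 and limma 3.58.1 (voom) among others.

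The members and lists were chosen with earlier results of these data known. Named are all members, Tead2, Tead3, Lats1, Stk3, Stk4, Nf2, Vgll4, Amot, up to 8 called genes of each pathway list by adjusted p, the 3 nearest profiles (mean log2 CPM of at least 4; predicted genes left out) and up to 2 called markers per list. Myof, Rbms3, F3, Wwc1, Limd1, Taok2, Vgll1, Vgll2, Igfbp3, Epcam, Msln, Lyz2, Cd3e and Alas2 are outside that rule, and were chosen after their values were seen.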

Additional observations from a re-analysis of the deposited data

Results flagged for a closer look

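Tead4 in Control library 4 stood apart from its group. It was counted at 18.2 CPM, where the other 5 Controls had 27.8 to 33.0 CPM, and the gap to the nearest was 0.646 of the group's range, above Dixon's 95% critical value for 6 libraries. This was 1 flag in 20 groups of values examined (10 genes, each in Control and in knockout), and chance gives about 1 in 20. Without that library the Tead4 log2 fold change was 0.77 (edgeR, adjusted p = 2.26e-05).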

How the results depend on the processing

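Ankrd1 kept its direction and its call under all 28 alternatives, Wwtr1, Tead4 and Axl under 27 each, Yap1 under 24, Amotl2 under 20 and Ctgf under 17; Tead1 and Lats2 were called under none. Cyr61, not called, was called lower under 2, the omission of Control libraries 4 to 6 (-0.19; edgeR, adjusted p = 0.0234) and the alveolar type 1 covariate. Leaving out each library in turn gave 3 to 4 members higher and 2 to 3 lower, 8 to 9 and 4 to 5 genes in the wider target list, 8 to 10 and 8 to 12 in the Hippo list, and 2643 to 3120 and 2618 to 3269 over all genes. With library-size scaling alone 4 members were higher and 1 lower. In that fit 9 wider targets were higher and 3 lower, and 9 Hippo genes higher and 5 lower. The calls over all genes there were 3980 higher and 2107 lower, 65.4% higher against 49.2% in the main fit. At an adjusted p of 0.01, 7 wider targets were higher and 3 lower, and 8 Hippo genes higher and 6 lower. Over all genes 2108 were higher and 2176 lower at that threshold.

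With the mesenchymal covariate 3 members were higher and 1 lower, with 1595 genes higher and 1456 lower in all. In that fit 6 wider targets were higher and 2 lower, and 6 Hippo genes higher and 3 lower. With the mesothelial covariate 1 member was higher and 1 lower, with 1059 genes higher and 1538 lower in all. In that fit 2 wider targets were higher and 4 lower, and 4 Hippo genes higher and 5 lower. There Ctgf (-0.23), Igfbp3 (-2.18) and Tgfb2 (0.13) reversed, from 0.33, 0.58 and -0.51. The labels give no sex. Among libraries low in Y-linked transcripts (2 Control, 4 knockout), 6 wider targets were higher and 3 lower, and 1932 and 1821 genes in all. Among those high in them (4 Control, 1 knockout, assumed to vary like the others) 0 members were lower at an adjusted p under 0.05 by edgeR (1 at an unadjusted p under 0.05), 4 wider targets were higher and 2 lower, 4 Hippo genes higher and 1 lower, and 869 and 933 genes in all; Wwtr1 stood at -0.60 there and at -0.57 among the low. These Y-linked divisions, the mesothelial and alveolar type 1 covariates and the omission of Control libraries 4 to 6 were chosen after seeing the data. The cause of these changes was not tested.

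Over all genes, replicate numbers gave little sign of pairing. Correlations of same-numbered deviations ran from -0.06 to 0.27, and 1 of 5 knockout libraries correlated best with its own number. With so few libraries this check cannot exclude pairing or a shared order, and Ctgf fell with the replicate number in both groups. With the replicate block, on replicates 1 to 5, 4 members were higher and 3 lower. Over all 13839 genes tested in that fit, 3065 were higher and 3105 lower. The fit without Control library 6 uses the same libraries without the block. From that fit to the block fit, the adjusted p by edgeR went from 0.0432 to 0.00391 for Ctgf. For Yap1 it rose from 0.00431 to 0.0109. Ankrd1 rests on 37 Control counts, which limits the precision of its fold change.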

Other observations

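Vgll1, a TEAD partner left out by the filter on low counts, was seen with 3 counts in all Controls and 28 in all knockouts (library-scaled ratio 9.67, 95% interval 2.99 to 49.7 for counting error only). Vgll2 had 2 counts in Control and none in the knockout. Neither was tested.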
